A study of Mus musculus with 48 samples.

Results

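The 8 genes described here encode the transcription factor STAT5 and a set of genes that STAT5 is known to switch on and that in turn feed back on cytokine signaling or carry it further: Stat5a, Stat5b, Cish, Socs1, Socs2, Socs3, Pim1 and Pim2. They were taken by symbol, with no threshold on a measured value, and are 8 of 53345 genes in the tables. RNA-seq was performed on splenic regulatory T cells (Tregs) of 32 mice and on CD4 T cells without CD25 (Tcons) of 16 of the same mice. All mice were C57BL/6 females of 8 to 12 weeks, and every mouse received an antibody 2 times at 500 µg, either an isotype control or one against MHC class II. Through MHC class II, antigen is shown to the T cell receptor (TCR) of CD4 T cells, and the second antibody blocks this (MHC II block). They were then given PBS or 25 µg of an Fc-fused human IL-2 under the skin: wildtype IL-2 (WT IL-2) or an attenuated mutein, either H16R, named for its 1 substitution, or 3x, which carries 3 substitutions. Spleens were taken on day 4. These treatments form 8 Treg groups of 4 mice and 8 Tcon groups of 2 mice. Each mouse gave 1 sample per cell fraction, so within a fraction p-values measure the spread between mice. Between fractions they measure the spread of the differences within mice. Tregs were the fraction bound in the CD25 step of a magnetic kit and Tcons its unbound flow-through, so neither fraction was gated on FOXP3, and CD25 itself is encoded by an IL-2 target gene. Per the study's methods, aliquots were stained for FOXP3 after purification, and in most samples the large majority of cells was positive. In isotype WT IL-2 Tregs the labels use replicate number 3 for 2 samples, here 3a and 3b, which were treated as different mice.

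IL-2 binds a receptor whose β and common γ chains carry the kinases JAK1 and JAK3; these phosphorylate STAT5A and STAT5B, which pair and bind DNA motifs of the form TTCNNNGAA. CIS (the product of Cish) and the SOCS proteins are induced by this signal and limit it, and PIM kinases support survival and growth downstream of it. In Tregs the same pathway maintains FOXP3 and CD25. STAT5 is activated by phosphorylation, which RNA does not measure.

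Promoter sequence is shown for the members in which that motif was found, because STAT5 is known to bind such letters. The RefSeq windows on GRCm38.p6, from 250 bases before to 50 bases after each transcript start, were available for 7 members and were searched for TTCNNNGAA, which reads the same way on both strands. The 2 members with a match are printed 5′ to 3′ on the strand of the gene, with the motif in capitals.
Cish, chr9:107296654-107296683, plus strand: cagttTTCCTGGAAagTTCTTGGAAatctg
Socs3, chr11:117969502-117969531, minus strand: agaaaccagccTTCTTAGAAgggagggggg
Cish held 2 motifs, which begin 0 and 11 bases after the RefSeq start, and Socs3 held 1, which lies 154 to 146 bases before it. The other 5 members with windows (Stat5a, Stat5b, Socs1, Pim1 and Pim2) had no match in any of theirs. Across all 32851 windows, 8.30% held at least 1 match and 0.457% at least 2. A match is a run of letters and does not show that STAT5 was bound.

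Libraries held 18279780 to 51953840 expected counts, and isotype PBS Tregs were the shallowest group (18279780 to 34581246). The lowest count of any member in any library was 311 expected counts, for Socs2 in a Tcon library. The summed level of 4 Treg markers (Foxp3, Il2ra, Ikzf2 and Ctla4) was 2245 to 4228 CPM (counts scaled to a common library size) in Tregs and 281 to 1331 in Tcons, where the highest value was that of isotype WT IL-2 Tcon replicate 2 and the next was 646. A pair of Treg libraries stood apart by B cell and myeloid markers: isotype PBS replicate 1 (5 B cell markers sum to 544 CPM) and MHC II block WT IL-2 replicate 1 (B cell sum 518, myeloid sum 446). Without both, 10 calls were lost and 2 gained among 208 gene and comparison pairs, and these are given beside the results.

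Per transcript length, in FPKM, Pim1 was the most abundant member in Tregs, with group means of 430 to 707. Socs3 (90.1 to 139), Cish (66.5 to 93.7) and Stat5b (62.5 to 72.4) followed, and then Stat5a (31.2 to 38.2), Socs2 (13.5 to 47.9), Pim2 (8.57 to 19.4) and Socs1 (7.83 to 11.2). The ranges of Cish and Stat5b overlapped, as did those of Stat5a and Socs2, of Socs2 and Pim2 and of Pim2 and Socs1, so the order of those neighbours depended on the group. Pim2 was above Socs2 in both PBS groups (19.4 against 15.7 FPKM with isotype and 17.9 against 13.5 with MHC II block) and below it in the 6 IL-2 groups. Socs2 had the widest range relative to its level, with its highest Treg library (58.8 FPKM) in isotype 3x and its lowest (11.7) in MHC II block PBS.

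**Figure D1:**
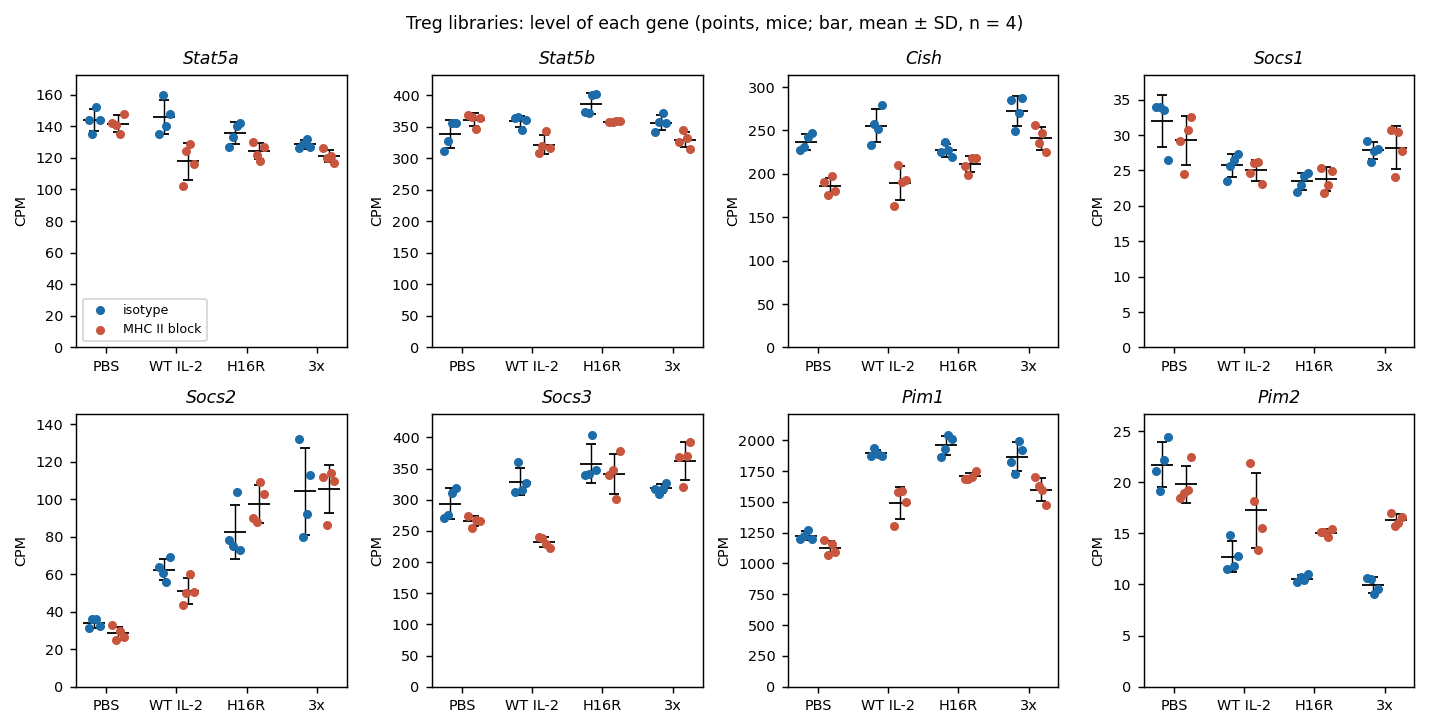
Level of each gene in the 32 Treg libraries, in CPM (TMM-scaled, linear axis from 0), by treatment, with isotype in blue and MHC II block in red; points are mice and black bars the mean ± SD of 4. Socs2 and Pim1 sit above PBS with each IL-2 molecule in both antibody arms, and Pim2 sits below PBS in isotype mice.

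The first comparison asked what each IL-2 molecule did to these genes on day 4. In isotype mice WT IL-2 changed 6 of 8 members (4 higher and 2 lower, where 52.2% of all 12392 tested genes passed), H16R changed 6 (4 higher and 2 lower, 64.2%) and 3x changed 8 (5 higher and 3 lower, 63.6%). Under MHC II block WT IL-2 changed 6 (2 higher and 4 lower, 35.6%), H16R changed 7 (4 higher and 3 lower, 66.5%) and 3x changed 7 (4 higher and 3 lower, 73.0%). A gene was called where edgeR's quasi-likelihood test gave an adjusted p under 0.1, by Benjamini-Hochberg over every gene tested, and the 3 comparisons within an arm share their 4 PBS mice. Socs2 and Pim1 were called higher in 6 of the 6 comparisons, and no member was called lower in 6. These are bulk samples, in which fewer cells of a type and less RNA per cell cannot be told apart. The Treg marker sum was 2449 to 3101 CPM in isotype PBS Tregs and 3670 to 4197 across the isotype IL-2 groups, and the B cell marker sum was 99.9 to 544 and 24.1 to 78.7. The NK cell sum was 27.3 to 43.7 and 9.52 to 20.6, and the dendritic cell sum 16.9 to 37.1 and 3.69 to 10.6, so both were lower with IL-2 without overlap. In blocked mice the Treg marker sum was 2608 to 2816 with PBS, 2245 to 3203 with WT IL-2, 3479 to 3848 with H16R and 3755 to 4228 with 3x. With isotype PBS replicate 1 and MHC II block WT IL-2 replicate 1 left out together, an alternative added after seeing the data, the isotype count over the 3 molecules was 15 of 24 against 20, and the MHC II block count 21 against 20. In that fit 52.8%, 64.3% and 62.6% of all genes passed with WT IL-2, H16R and 3x in isotype mice. In blocked mice the shares were 34.5%, 68.9% and 75.3%. The calls lost were the small ones of Stat5b (0.06 and 0.06 with WT IL-2 and 3x, adjusted p = 0.288 and 0.211), Socs3 (0.13 and 0.10, 0.118 and 0.219) and Socs1 with 3x (-0.15, 0.161) in isotype mice. The part of these marker shifts in the remaining values was not tested.

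**Figure D2:**
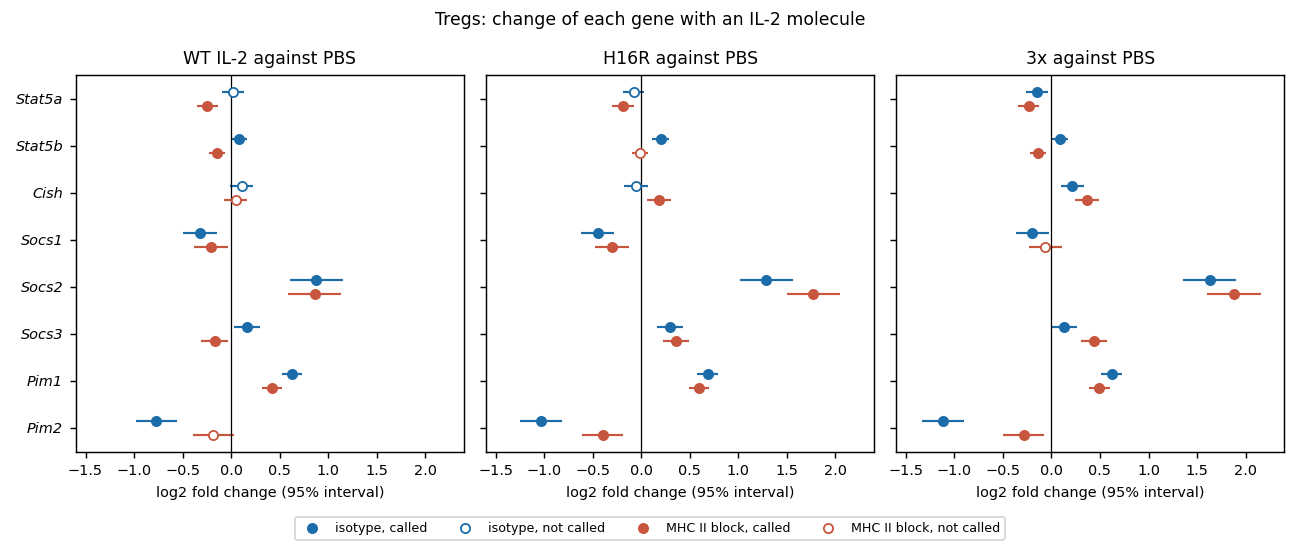
Log2 fold change of each gene with WT IL-2, H16R or 3x against PBS in Tregs, with isotype in blue and MHC II block in red; bars are 95% intervals, filled points passed the threshold and open points did not. Socs2 lies furthest to the right in each panel, from 0.86 to 1.88, and Pim2 furthest to the left in isotype mice, from -1.12 to -0.77.

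Stat5a and Stat5b encode the paired STAT5 proteins, and their mRNA moved little. Stat5a was at 135 to 152 CPM in isotype PBS Tregs, 135 to 160 with WT IL-2, 127 to 142 with H16R and 126 to 132 with 3x. The isotype 3x mice lay below all isotype PBS mice, and the other isotype groups overlapped with PBS. Stat5a accordingly fell with 3x by 0.15 on the log2 scale (SE 0.05, adjusted p = 0.0206; -0.09 and 0.296 without filters on CPM and biotype), while the differences with WT IL-2 (log2 0.02, 95% interval -0.09 to 0.13) and H16R (-0.08, -0.19 to 0.03) did not pass. Under MHC II block it was at 135 to 148 CPM with PBS, and 102 to 129 with WT IL-2, 118 to 130 with H16R and 117 to 126 with 3x. No IL-2-treated mouse of that arm reached the lowest PBS mouse, and Stat5a fell by 0.24 with WT IL-2, by 0.19 with H16R and by 0.24 with 3x (adjusted p = 0.00138, 0.00403 and 0.000392). The H16R value was -0.12 (0.162) without the filters. The levels of the paralog differed between arms. Stat5b was at 311 to 356 CPM in isotype PBS Tregs, 345 to 365 with WT IL-2, 371 to 402 with H16R and 342 to 371 with 3x, and the H16R mice lay above all PBS mice (log2 fold change 0.20 ± 0.04, adjusted p = 0.00015). Under MHC II block it was at 346 to 369 with PBS, 308 to 343 with WT IL-2, 357 to 359 with H16R and 315 to 345 with 3x. WT IL-2 and 3x mice of that arm lay below PBS, by 0.15 and 0.14 on the log2 scale (adjusted p = 0.00728 and 0.00321, the second -0.06 and 0.406 without the filters), and H16R did not differ detectably (-0.02, -0.10 to 0.07). The Stat5b calls of 0.08 with WT IL-2 (adjusted p = 0.0948) and 0.09 with 3x (adjusted p = 0.0679) in isotype mice are close to the threshold. Without isotype PBS replicate 1 they were 0.05 and 0.06 (adjusted p = 0.311 and 0.253), so no direction is drawn from them. The first was lost in 14 of 32 fits that each left out 1 library, and the second also without PBS replicate 2 (0.08, adjusted p = 0.154) or 3x replicates 2 (0.09, 0.102) or 3 (0.07, 0.202).

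The 2 STAT5 genes lie side by side on chromosome 11 (GRCm38; Stat5a at 100859351 to 100885169, plus strand, and Stat5b at 100780731 to 100850724, minus strand) and are near-identical copies. Their expected counts were fractional in 48 of 48 libraries, against 97.9% of libraries for Pim1, 68.8% for Cish and none for Socs1 and Socs3, so reads were divided between sources by the authors' estimation and the split is uncertain. With that limit, Stat5b was 1.96 ± 0.156 times Stat5a in FPKM over the 32 Treg libraries (mean ± SD, range 1.59 to 2.23) and 1.95 ± 0.154 times over the 16 Tcon libraries. In isotype Tregs the ratio was 1.73 ± 0.0996 with PBS (range 1.59 to 1.82), 1.81 ± 0.127 with WT IL-2 (1.67 to 1.98), 2.10 ± 0.0489 with H16R (2.04 to 2.16) and 2.04 ± 0.0351 with 3x (1.99 to 2.07). Mice given either mutein lay above all PBS mice, and those given WT IL-2 overlapped with PBS. In the MHC II block arm it was 1.87 ± 0.0425 with PBS (1.81 to 1.91), 2.01 ± 0.140 with WT IL-2 (1.89 to 2.21), 2.12 ± 0.0899 with H16R (2.02 to 2.23) and 2.00 ± 0.0866 with 3x (1.90 to 2.11), and here H16R alone lay wholly above PBS.

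Cish (chromosome 9, 107296026 to 107302784, plus strand, as for all positions on GRCm38) encodes CIS, a feedback inhibitor that competes for STAT5 docking at the receptor and restrains TCR signaling. It is the member with 2 motifs at its start, and its differences from PBS in Tregs were smaller than those of Socs2. In isotype mice Cish was at 227, 231, 242 and 247 CPM with PBS, 233, 258, 252 and 279 with WT IL-2, 225, 237, 228 and 219 with H16R, and 285, 249, 270 and 287 with 3x. Only the 3x mice lay wholly above the PBS mice. Cish rose with 3x by 0.22 ± 0.06 on the log2 scale (1.16-fold, adjusted p = 0.00282), and did not pass with WT IL-2 (0.11, 95% interval -0.01 to 0.23) or H16R (-0.06, -0.18 to 0.07). In the blocked mice it was at 191, 176, 197 and 180 CPM with PBS, 163, 210, 191 and 193 with WT IL-2, 209, 199, 218 and 218 with H16R, and 256, 236, 247 and 225 with 3x. Here both muteins lay above all PBS mice, and the WT IL-2 mice spread around them. The changes were 0.18 ± 0.06 with H16R and 0.36 ± 0.06 with 3x (1.14-fold and 1.29-fold, adjusted p = 0.00924 and 4.51e-06), and 0.05 with WT IL-2 (-0.08 to 0.17).

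Socs1 (chromosome 16, 10782240 to 10785536, minus strand) encodes a direct inhibitor of JAK kinases, and in Tregs it had the lowest group means in FPKM among Cish and the 3 SOCS genes. It was called lower with IL-2 in Tregs in 5 of the 6 comparisons, of which the 2 given last below were close to the threshold. It was at 34.0, 34.0, 33.5 and 26.5 CPM in isotype PBS Tregs, 23.5 to 27.3 with WT IL-2, 22.0 to 24.7 with H16R and 26.2 to 29.2 with 3x. PBS replicate 4 lay within the WT IL-2 and 3x ranges, and the H16R mice lay below all PBS mice. Socs1 fell by 0.32 with WT IL-2 (SE 0.08, adjusted p = 0.0029) and by 0.45 with H16R (SE 0.08, adjusted p = 5.03e-05). With MHC II blocked it was at 24.5 to 32.6 CPM with PBS, 23.1 to 26.2 with WT IL-2, 21.8 to 25.4 with H16R and 24.1 to 30.7 with 3x, each overlapping with PBS, and it fell with H16R by 0.30 (adjusted p = 0.00304). With 3x in that arm it did not pass (-0.06, -0.23 to 0.11). The lower values with 3x in isotype mice (-0.20, adjusted p = 0.0466) and with WT IL-2 under MHC II block (-0.21, adjusted p = 0.0644) did not pass when single libraries were left out. For the first these were isotype PBS replicates 1 (-0.16, adjusted p = 0.145), 2 (-0.17, 0.123) and 3 (-0.18, 0.106) and isotype 3x replicate 2 (-0.17, 0.116). For the second they were MHC II block PBS replicates 1 (-0.21, 0.104), 3 (-0.18, 0.147) and 4 (-0.15, 0.224) and WT IL-2 replicate 4 (-0.17, 0.177). Both were also lost without filters on CPM and biotype (-0.14, adjusted p = 0.286, and -0.20, 0.171).

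Socs2 (chromosome 10, 95385362 to 95417180, minus strand), which encodes a SOCS protein best known for limiting growth hormone signaling, had the largest change of the 8 genes. In isotype Tregs it was at 31.1, 36.0, 36.3 and 32.6 CPM with PBS, 63.9, 60.6, 55.8 and 69.1 with WT IL-2, 78.4, 75.1, 104 and 73.2 with H16R, and 132, 79.7, 92.0 and 113 with 3x. Every IL-2-treated mouse lay above every PBS mouse, and H16R and 3x mice lay above every WT IL-2 mouse, while H16R and 3x overlapped with each other. The rises for WT IL-2, H16R and 3x were 0.88 ± 0.13, 1.29 ± 0.13 and 1.63 ± 0.13 (1.84-fold, 2.44-fold and 3.09-fold, adjusted p = 6e-06, 4.59e-09 and 8.05e-11). In the blocked mice it was at 32.8, 25.2, 29.7 and 26.5 CPM with PBS, 43.5 to 60.2 with WT IL-2, 89.9, 88.1, 109 and 103 with H16R, and 112, 86.3, 114 and 110 with 3x. The order of the groups was the same, with no overlap of PBS, WT IL-2 and the muteins. These rises were 0.86 ± 0.13, 1.77 ± 0.13 and 1.88 ± 0.13 (1.82-fold, 3.42-fold and 3.68-fold, adjusted p = 2.47e-05, 1.05e-11 and 1.46e-12).

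Socs3 (chromosome 11, 117966079 to 117970047, minus strand) encodes an inhibitor best known for acting on gp130 cytokine receptors, and its response to WT IL-2 differed between the antibody arms (interaction -0.33, adjusted p = 0.014). In isotype Tregs it was at 270, 275, 311 and 319 CPM with PBS, 313, 360, 315 and 327 with WT IL-2, 339, 341, 404 and 348 with H16R, and 318, 310, 318 and 327 with 3x. H16R mice lay above all PBS mice (0.29 ± 0.07, adjusted p = 0.000406), and the other groups overlapped with PBS. With MHC II blocked it was at 274, 255, 268 and 266 with PBS, 241, 238, 229 and 223 with WT IL-2, 339, 347, 301 and 378 with H16R, and 368, 320, 370 and 393 with 3x. WT IL-2 mice of this arm lay below every PBS mouse and mutein mice above. The changes were 0.36 ± 0.07 with H16R and 0.44 ± 0.07 with 3x (1.28-fold and 1.36-fold, adjusted p = 3.59e-05 and 1.26e-06) and -0.17 ± 0.07 with WT IL-2 (adjusted p = 0.0524). The WT IL-2 value did not pass without MHC II block PBS replicate 1 (-0.16, adjusted p = 0.12) or WT IL-2 replicates 3 (-0.16, 0.109) or 4 (-0.15, 0.131), or without filters on CPM and biotype (-0.17, 0.147). In this arm the myeloid marker sum was 13.5 to 20.0 CPM with PBS, 23.5 to 446 with WT IL-2, 33.1 to 57.3 with H16R and 45.4 to 62.2 with 3x, so it was above PBS with every molecule, and its part in these values was not tested. The isotype calls with WT IL-2 (0.16, adjusted p = 0.0443) and 3x (0.13, adjusted p = 0.0992) were near the threshold as well. They were 0.13 and 0.10 (adjusted p = 0.132 and 0.255) without isotype PBS replicate 1, and 0.13 and 0.10 (0.132 and 0.247) without replicate 2. The first was 0.11 (0.18) without WT IL-2 replicate 2, and the second was lost in 21 of 32 fits that each left out 1 library.

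Pim1 (chromosome 17, 29490753 to 29496112, plus strand) encodes a constitutively active serine/threonine kinase that supports survival, and it rose with each molecule. In isotype Tregs it was at 1202, 1223, 1275 and 1195 CPM with PBS, 1874, 1934, 1891 and 1871 with WT IL-2, 1866, 1925, 2040 and 2006 with H16R, and 1820, 1729, 1995 and 1921 with 3x. The 3 IL-2 groups overlapped with each other and lay far above PBS. The rises were 0.63, 0.68 and 0.62, each ± 0.05 (1.54-fold, 1.6-fold and 1.54-fold, adjusted p = 1.66e-10, 1.13e-11 and 9.84e-11). In the blocked mice it was at 1193, 1065, 1156 and 1097 CPM with PBS, 1307, 1578, 1587 and 1498 with WT IL-2, 1683, 1686, 1704 and 1751 with H16R, and 1698, 1630, 1596 and 1473 with 3x. All IL-2-treated mice again lay above all PBS mice, the lowest being WT IL-2 replicate 1, which is the library rich in B cell and myeloid markers. The rises in this arm were 0.42, 0.59 and 0.49, each ± 0.05 (1.34-fold, 1.51-fold and 1.41-fold, adjusted p = 9.1e-07, 1.35e-10 and 2.16e-09).

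Pim2 (chromosome X, 7878262 to 7883432, plus strand) encodes a related kinase, and unlike Pim1 it was lower with IL-2. In isotype Tregs it was at 21.1, 19.1, 22.2 and 24.4 CPM with PBS, 11.5, 14.8, 11.8 and 12.8 with WT IL-2, 10.2, 10.7, 10.4 and 11.0 with H16R, and 10.6, 10.5, 9.03 and 9.58 with 3x. All IL-2-treated mice of this arm lay below all PBS mice. Pim2 fell by 0.77 with WT IL-2, by 1.03 with H16R and by 1.12 with 3x (SE 0.10, 0.11 and 0.11; 1.71-fold, 2.05-fold and 2.17-fold; adjusted p = 9.7e-07, 3.33e-09 and 9.14e-10). With MHC II blocked it was at 18.5, 18.9, 19.2 and 22.5 CPM with PBS, 21.9, 18.2, 13.4 and 15.5 with WT IL-2, 15.1, 15.1, 14.6 and 15.4 with H16R, and 17.0, 15.7, 16.0 and 16.6 with 3x. Mutein mice lay below PBS and the WT IL-2 mice spread across both. It fell with H16R by 0.40 and with 3x by 0.29 (adjusted p = 0.00165 and 0.0154, the second -0.20 and 0.137 without filters on CPM and biotype), and WT IL-2 gave -0.18 (95% interval -0.39 to 0.03, adjusted p = 0.184). Without WT IL-2 replicate 1, the library rich in B cell and myeloid markers, that value was -0.33 (adjusted p = 0.00849), and without isotype PBS replicate 1 as well it was -0.33 (0.0081).

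Plasma cell markers moved with Pim2, and Pim2 is also transcribed in plasma cells. All 3 markers (Jchain, Sdc1 and Mzb1) were above 0 in 32 of 32 Treg libraries. In isotype Tregs their sum was 1518 to 1830 CPM with PBS, 644 to 780 with WT IL-2, 196 to 448 with H16R and 84.0 to 181 with 3x, the same order as Pim2. In blocked mice it was 603 to 1915 with PBS, 1558 to 3155 with WT IL-2, 566 to 1241 with H16R and 592 to 1383 with 3x, so these ranges overlapped between PBS and each molecule. The part of plasma cell RNA in the Pim2 values was not tested.

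**Figure D3:**
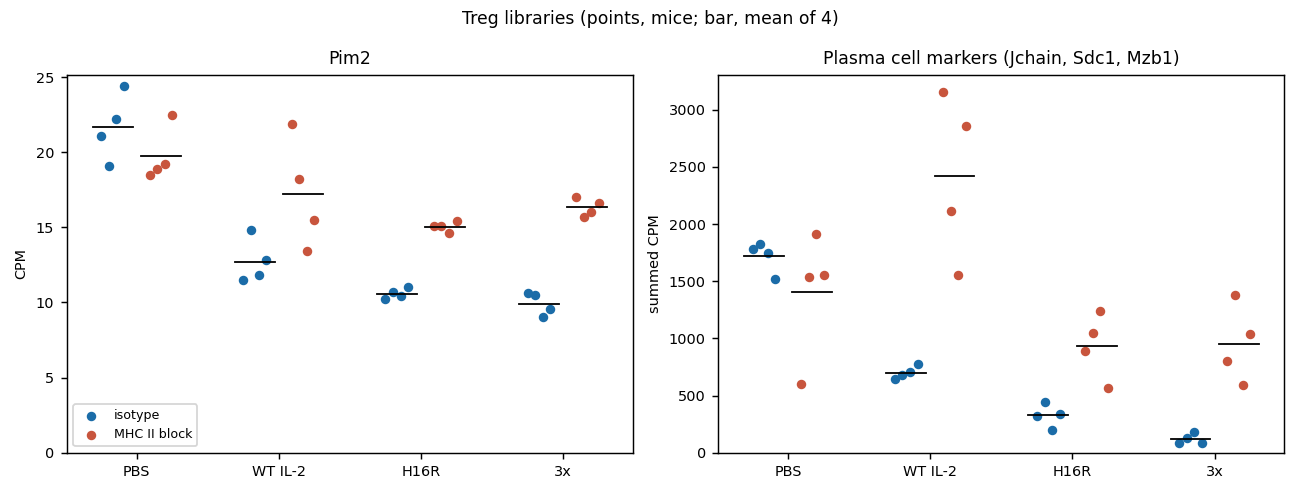
Pim2 level (left, CPM) and the summed level of the plasma cell markers Jchain, Sdc1 and Mzb1 (right, CPM) in the 32 Treg libraries by treatment, with isotype in blue and MHC II block in red; points are mice and bars means of 4. In isotype mice both fall from PBS to 3x, Pim2 from a mean of 21.7 to 9.92 CPM, and under MHC II block both are higher on average than in isotype mice given the same IL-2 molecule.

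The IL-2 molecules were then compared with each other at the same dose and day, as 3 pairs in each of the 2 antibody arms, with p-values adjusted over all genes within each pair. In isotype mice H16R and WT IL-2 differed in 4 of 8 members (2 higher and 2 lower with H16R, background 18.6%), 3x and WT IL-2 in 3 (1 and 2, 34.7%) and 3x and H16R in 4 (3 and 1, 11.5%). With MHC II blocked these counts were 6 (5 and 1, 57.5%), 3 (3 and 0, 68.7%) and 3 (2 and 1, 25.2%). The isotype count over the 3 pairs, 11 of 24, was 6 without WT IL-2 replicate 2, H16R replicate 3 or H16R replicate 4, and 7 without WT IL-2 replicate 3b, H16R replicate 1, 3x replicate 1 or 3x replicate 4. The share of all genes called in these fits is not given here, so the lower counts are not read as a result about the members. Without filters on CPM and biotype the isotype count was 5, and the shares of all genes called were 4.45%, 11.6% and 2.64%. Socs2 was called between both muteins and WT IL-2 in both arms. Socs2 was higher with 3x than with WT IL-2 by 0.75 ± 0.13 in isotype mice and by 1.02 ± 0.13 under MHC II block (1.69-fold and 2.03-fold, adjusted p = 7.91e-05 and 1.68e-07). With H16R it was higher than with WT IL-2 by 0.41 ± 0.13 and 0.91 ± 0.13 (1.33-fold and 1.88-fold, adjusted p = 0.0331 and 3.14e-06), although the isotype value was 0.28 (adjusted p = 0.223) without H16R replicate 3, the mouse at 104 CPM. Between 3x and H16R it differed by 0.34 in isotype mice (adjusted p = 0.0991, lost in 23 of 32 fits that left out 1 library, up to 0.446) and by 0.11 under MHC II block, with a 95% interval of -0.15 to 0.37.

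For Socs3, both muteins were called against WT IL-2 under MHC II block and neither in isotype mice. In the blocked mice Socs3 was higher with H16R by 0.53 ± 0.07 and with 3x by 0.61 ± 0.07 than with WT IL-2 (1.44-fold and 1.53-fold, adjusted p = 5.41e-07 and 1.31e-08). In isotype mice the same differences were 0.13 (adjusted p = 0.205) and -0.04 (-0.17 to 0.10), neither past the threshold. Cish was higher with 3x than with WT IL-2 by 0.32 ± 0.06 under MHC II block (1.25-fold, adjusted p = 4.42e-05), against 0.11 (-0.01 to 0.23) in isotype mice. With H16R, Cish was lower than with WT IL-2 in isotype mice (-0.16, adjusted p = 0.0657, lost in 5 of 32 fits that left out 1 library, up to 0.244) and higher in blocked mice (0.14, adjusted p = 0.0534). It was also higher with 3x than with H16R, by 0.27 ± 0.06 in isotype mice (adjusted p = 0.00577) and 0.18 ± 0.06 under MHC II block (adjusted p = 0.0313, or 0.125 without 3x replicate 1). Pim1 did not separate the molecules in isotype mice, where its 3 differences lay between -0.06 and 0.06 and their 95% intervals lay within -0.17 and 0.16. In blocked mice Pim1 was higher with H16R than with WT IL-2 by 0.17 ± 0.05 (adjusted p = 0.0071). Pim2 was lower with 3x than with WT IL-2 in isotype mice by 0.35 on the log2 scale (1.27-fold, adjusted p = 0.0138). Without both libraries rich in B cell and myeloid markers, the MHC II block differences of H16R from WT IL-2 in Cish and Pim2 (-0.21, adjusted p = 0.0863) were 0.09 (0.19) and -0.06 (0.614).

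The next comparison asked what MHC II block did at each treatment. In PBS mice it changed 1 of 8 members (0 higher and 1 lower, 14.1% of all genes), with WT IL-2 it changed 6 (1 and 5, 33.6%), with H16R 4 (1 and 3, 30.7%) and with 3x 6 (2 and 4, 54.1%). Cish was the member changed in PBS mice: its 4 MHC II block libraries (176 to 197 CPM) lay below all 4 isotype libraries (227 to 247), by 0.35 on the log2 scale (1.28-fold, adjusted p = 0.000282). Cish was also lower with block among mice given WT IL-2 (by 0.42, adjusted p = 9.05e-06) and 3x (by 0.20, adjusted p = 0.00609), and H16R gave -0.11 (95% interval -0.23 to 0.01). Pim1 was lower with block with WT IL-2, H16R and 3x (-0.33, -0.21 and -0.24, adjusted p = 3.28e-05, 0.00554 and 0.000343), and no mouse of one arm overlapped with the other in these groups. In PBS mice the arms of Pim1 did not overlap either (1065 to 1193 CPM with block and 1195 to 1275 with isotype), although it was not called there. Pim2 was higher with block for each molecule (0.45, 0.50 and 0.70, adjusted p = 0.00158, 0.00151 and 5.18e-06) and not in PBS mice (-0.13, -0.35 to 0.08), as were the plasma cell markers in the groups listed above. Without both libraries rich in B cell and myeloid markers Socs3 was also called in PBS mice (-0.18, adjusted p = 0.0976). Socs3 was lower with block by 0.48 on the log2 scale with WT IL-2 (adjusted p = 5.56e-06) and higher with 3x (0.17, adjusted p = 0.0368, or 0.13 and 0.138 without MHC II block 3x replicate 4). Stat5a was lower with block by 0.29 with WT IL-2 (adjusted p = 0.000229), and its values with H16R and 3x (-0.13 and -0.11, adjusted p = 0.0786 and 0.0973) were lost in 7 and 17 of 32 fits that left out 1 library. Stat5b was lower with block with WT IL-2 and 3x (-0.14 and -0.13, adjusted p = 0.013 and 0.00841), and with H16R (-0.12, 0.0372) until isotype H16R replicate 4 was left out (-0.10, 0.129). Without filters on CPM and biotype the H16R and 3x values of Stat5a (adjusted p = 0.241 and 0.379) and the H16R value of Stat5b (0.162) did not pass. Socs2 passed at no treatment, with values from -0.27 to 0.23. Myeloid, dendritic and NK cell markers were also higher with block in each IL-2 group, without overlap. In isotype and blocked mice the myeloid sum was 13.3 to 21.2 and 23.5 to 446 CPM with WT IL-2, 13.7 to 16.9 and 33.1 to 57.3 with H16R, and 17.9 to 23.9 and 45.4 to 62.2 with 3x. The dendritic cell sum was 7.39 to 10.6 and 20.3 to 81.0, 3.69 to 5.38 and 18.1 to 28.4, and 5.14 to 7.26 and 18.7 to 26.2. The NK cell sum was 13.9 to 20.6 and 34.9 to 49.3, 9.52 to 13.5 and 19.0 to 30.5, and 11.0 to 19.3 and 21.4 to 26.0. The B cell sum was 42.1 to 78.7 and 71.3 to 518, 26.1 to 34.1 and 42.4 to 74.3, and 24.1 to 31.2 and 48.2 to 108, so it overlapped with WT IL-2 only. The Treg marker sum was lower with block with WT IL-2, at 2245 to 3203 CPM against 3670 to 4197, and with H16R, at 3479 to 3848 against 3970 to 4069, both without overlap. With 3x it overlapped (3755 to 4228 with block and 3881 to 4070 with isotype). The CD4 T cell marker sum (Cd3e, Cd3d and Cd4) was lower with block with WT IL-2, at 1076 to 1413 against 1468 to 1635, and overlapped with both muteins. In PBS mice the myeloid, dendritic, NK and B cell sums overlapped between arms, and the part of these markers in the results was not tested.

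Whether the response to a molecule differed between arms was tested by the interaction, which was called in 5 of 8 members for WT IL-2 (1 positive and 4 negative, 19.7% of all genes), 4 for H16R (3 and 1, 19.1%) and 3 for 3x (2 and 1, 39.0%). Stat5b and Pim2 were called for each molecule. The response of Stat5b was lower under MHC II block by 0.23, 0.21 and 0.23 on the log2 scale for WT IL-2, H16R and 3x (adjusted p = 0.0061, 0.0175 and 0.00391). The response of Pim2 was more positive under block, by 0.59 ± 0.15, 0.64 ± 0.15 and 0.83 ± 0.15 (adjusted p = 0.00621, 0.0065 and 0.000148), which is the weaker fall described above. Socs3 had called interactions of both signs, at -0.33 ± 0.09 for WT IL-2 and 0.31 ± 0.09 for 3x (adjusted p = 0.014 and 0.0126), and at 0.07 (95% interval -0.13 to 0.26) for H16R. For Stat5a the interaction was called with WT IL-2 (-0.27 ± 0.08, adjusted p = 0.0181). Pim1 was near the threshold with WT IL-2 (-0.21, adjusted p = 0.0569) and did not pass without MHC II block PBS replicate 1 (-0.18, adjusted p = 0.133) or WT IL-2 replicate 1 (-0.15, 0.147), or without both libraries rich in B cell and myeloid markers (-0.16, 0.146). Socs2 and Cish were near it with H16R (0.48 and 0.24, adjusted p = 0.0881 and 0.0618, up to 0.177 and 0.122 when 1 library was left out, and 0.157 and 0.146 without filters on CPM and biotype).

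For the Tregs and Tcons that came from the same 16 mice, the mouse was the block of the comparison. Each treatment had 1 Treg-minus-Tcon difference, fitted over the 2 isotype and 2 blocked mice together, so differences between the arms are averaged in it. Of the 8 members 7 were higher in Tregs and 1 was lower at each treatment, where 50.4% (PBS), 63.5% (WT IL-2), 70.4% (H16R) and 71.2% (3x) of 12844 genes passed. The 7 genes were higher in the Treg library in 16 of 16 mice, and Pim2 was lower in 16 of 16. Markers of other cells also differed between the fractions. Over all libraries the NK cell sum was 9.52 to 49.3 CPM in Tregs and 55.2 to 154 in Tcons, without overlap. The B cell sum was 24.1 to 544 and 101 to 830 and the dendritic cell sum 3.69 to 81.0 and 30.0 to 208, both overlapping. Their part in the member differences was not tested. Cish differed most, with a Treg-to-Tcon ratio of CPM from 3.75 to 7.10 and a median of 5.11. Next came Socs2 (median 3.55, range 1.81 to 7.17), Pim1 (2.59, 1.74 to 3.48), Socs3 (2.16, 1.57 to 3.21) and Socs1 (2.06, 1.68 to 2.86). The STAT5 genes differed least (Stat5a 1.36, 1.10 to 1.52; Stat5b 1.34, 1.15 to 1.56), and Pim2 was at 0.503 (0.378 to 0.781). In PBS mice alone, with both antibody arms together, the log2 differences were 2.74 ± 0.08 for Cish, 1.87 ± 0.14 for Socs2, 1.16 ± 0.12 for Socs1, 0.86 ± 0.09 for Pim1 and 0.84 ± 0.10 for Socs3 (adjusted p = 9.45e-13, 3.85e-08, 1.23e-06, 1.63e-06 and 3.19e-06).

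**Figure D4:**
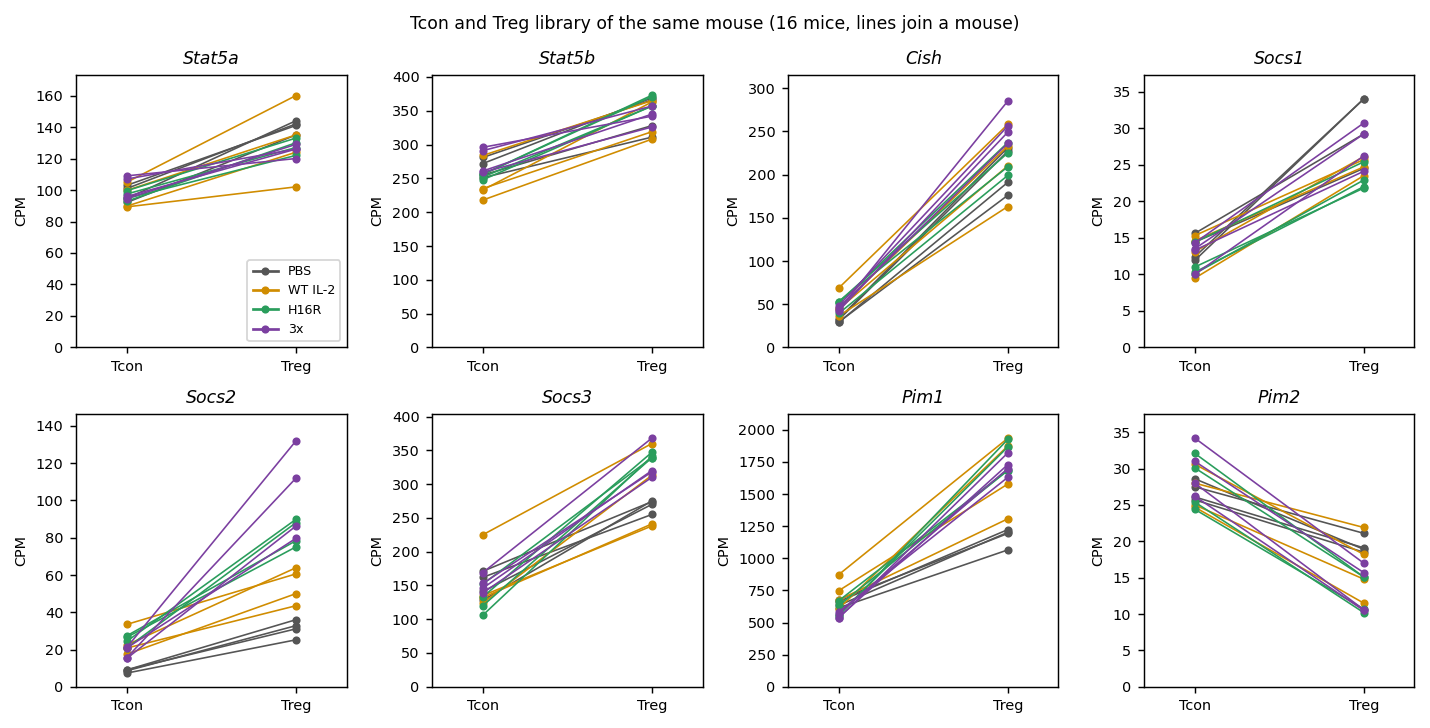
Level of each gene in the Tcon and Treg library of the same mouse (CPM, linear axis from 0), with 1 line for each of 16 mice, coloured by treatment. The lines rise from Tcon to Treg for 7 genes and fall for Pim2, and for Socs2 the PBS mice lie lowest in both cell fractions.

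The gap between Tregs and Tcons itself changed with WT IL-2 in 2 of 8 members (0 moved toward Tregs and 2 toward Tcons, 12.2% of all genes), with H16R in 5 (3 and 2, 40.6%) and with 3x in 4 (2 and 2, 46.5%). These changes are averages over both antibody arms and were not tested within an arm. The gap of Cish was narrower by 0.56 with WT IL-2 and by 0.56 with H16R (SE 0.10 for each, adjusted p = 0.0112 and 0.00123), and -0.21 with 3x did not pass (95% interval -0.43 to 0.00). The first of these was at an adjusted p of 0.109 when the mouse was not a block. Over the 3 molecules 11 of 24 such changes were called, and 7 without the block, where the share of all genes called was 1.27%, 30.2% and 36.2%. Without both libraries rich in B cell and myeloid markers, the calls of Socs2 with WT IL-2 (-0.62, adjusted p = 0.0707) and Stat5b with H16R (0.17, 0.0484) were -0.62 (0.146) and 0.13 (0.171). The gap of Pim1 widened by 0.73 ± 0.13 with H16R and 0.78 ± 0.13 with 3x (adjusted p = 0.00107 and 0.000351). That of Socs2 widened with 3x by 0.63 ± 0.19 (adjusted p = 0.0198), and that of Socs3 with H16R by 0.61 ± 0.14 (adjusted p = 0.00419). Pim2 moved further below Tcons with both muteins (-0.65 and -0.69, adjusted p = 0.00286 and 0.00122). In isotype mice the plasma cell marker sum was higher in Tregs than in Tcons with PBS and lower with each molecule. Over all mice of each isotype group it was 1518 to 1830 CPM in Tregs and 840 to 1209 in Tcons with PBS. It was 644 to 780 and 1334 to 2638 with WT IL-2, 196 to 448 and 1607 to 1800 with H16R, and 84.0 to 181 and 323 to 429 with 3x. The change of the Pim2 gap was not called with WT IL-2. In the blocked mice the marker sum was 603 to 1915 and 687 to 1043 with PBS and 1558 to 3155 and 2351 to 2474 with WT IL-2. It was 566 to 1241 and 1629 to 1665 with H16R, and 592 to 1383 and 760 to 1133 with 3x. The part of these markers in the gap was not tested.

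In Tcons, sorted as cells without CD25, 2 of 8 members were called with each molecule (2 higher and 0 lower for each), where the share of 12526 genes that passed was 27.2% for WT IL-2, 31.1% for H16R and 9.88% for 3x. These were Socs2 and Cish, in each case with the antibody as a term and 4 mice per treatment. Socs2 was at 7.36, 8.59, 9.07 and 9.10 CPM in PBS Tcons and at 15.3 to 33.5 in the 12 IL-2-treated Tcons. No IL-2-treated library overlapped with PBS. For WT IL-2, H16R and 3x it rose by 1.45 ± 0.12, 1.54 ± 0.12 and 1.08 ± 0.12 (2.73-fold, 2.91-fold and 2.12-fold, adjusted p = 6.14e-05, 8.16e-06 and 0.000425). Cish was at 29.0, 29.4, 32.0 and 33.2 CPM in PBS Tcons and at 36.4 to 68.8 in IL-2-treated Tcons, also without overlap. It rose by 0.66 ± 0.14, 0.67 ± 0.14 and 0.55 ± 0.14 (1.57-fold, 1.59-fold and 1.47-fold, adjusted p = 0.00975, 0.00658 and 0.0394). The 3x call of Cish was lost without MHC II block 3x Tcon replicate 1 (0.48, adjusted p = 0.115) or replicate 2 (0.51, 0.116). Pim1, which rose in Tregs with each molecule, gave 0.17 (95% interval -0.03 to 0.37), -0.10 (-0.30 to 0.10) and -0.22 (-0.42 to -0.02, adjusted p = 0.183).

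Isotype WT IL-2 Tcon replicate 2, the library with a Treg marker sum of 1331 CPM, held the highest Tcon values of Cish (68.8 CPM), Socs2 (33.5), Socs3 (225) and Pim1 (873). Without it the WT IL-2 rises of Cish and Socs2 were 1.38-fold and 2.46-fold (adjusted p = 0.00635 and 1.54e-05). Socs3 went from 0.04 (95% interval -0.32 to 0.41) to -0.24 (adjusted p = 0.0348), and Stat5b from -0.13 to -0.21 (adjusted p = 0.0157). Socs3 and Socs1 were then called lower with H16R (-0.24 and -0.25, adjusted p = 0.0281 and 0.0913) and Pim1 with 3x (-0.22, adjusted p = 0.0262). The count of members called with the 3 molecules was 11 without this library, against 6 with it, where 43.1%, 39.0% and 17.8% of all genes passed with WT IL-2, H16R and 3x. MHC II block changed 3 of 8 members in Tcons (2 higher and 1 lower, 28.9% of genes): Socs2 was lower by 0.36 (adjusted p = 0.0167), Pim2 higher by 0.21 (adjusted p = 0.0168) and Socs1 higher by 0.25 (adjusted p = 0.0792, up to 0.154 when 1 library was left out). Without isotype WT IL-2 Tcon replicate 2 the block count was 5 (22.8% of all genes), with Socs3 (0.23, adjusted p = 0.0222) and Pim1 (0.13, 0.0559) added. Markers of other cells also differed between these Tcon groups. The B cell sum was 763 to 830 CPM in isotype PBS Tcons, 132 to 384 in isotype IL-2 Tcons, 116 to 125 in blocked PBS Tcons and 101 to 277 in blocked IL-2 Tcons. The myeloid sum was 97.1 to 105, 26.4 to 60.2, 32.7 to 34.3 and 105 to 480 in the same order. The dendritic cell sum was 87.3 to 129, 42.3 to 86.6, 30.0 to 31.0 and 125 to 208, and the NK cell sum 81.0 to 86.7, 79.8 to 120, 55.2 to 62.3 and 97.5 to 154. The sum of erythroid markers was 4.62 to 9.18, 2.59 to 252, 2.81 to 5.33 and 10.3 to 148. In isotype Tcons this last sum was 15.3 to 252 with WT IL-2, 45.5 to 53.0 with H16R and 2.59 to 4.61 with 3x. The Treg marker sum was 384 to 444 CPM with PBS, 516 to 1331 with WT IL-2, 642 to 646 with H16R and 435 to 579 with 3x in isotype Tcons. In blocked Tcons it was 484 to 509, 281 to 386, 457 to 478 and 383 to 390, so there it was lower with each molecule than with PBS. The part of these markers in the Tcon results was not tested.

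Across the 32 Treg libraries, which share treatments and so are not independent points, Socs2 and Pim1 had a Pearson r of log2 CPM of 0.81 and Pim1 and Pim2 one of -0.88. Cish correlated with Socs2 at 0.52 and with Socs3 at 0.55, and Stat5a with Stat5b at 0.50. The tested genes with the pattern most like Socs2 were Cdc42 (r = 0.969), St3gal4 (0.969) and Cd48 (0.967). For Pim1 they were Oaz2 (0.956), Fam129a (0.956) and Alox8 (0.949), and for Pim2 they were Alg2 (0.908), Tmed1 (0.899) and Prg2 (0.896). The nearest genes to Socs3 were Acly (0.881), Il4ra (0.875) and Hk1 (0.856), and to Socs1 Eif4a1 (0.853), Srsf2 (0.838) and Ddx39 (0.803). Among the nearest to Cish were Gprc5a (0.834) and H2afz (0.823). The nearest to Stat5a were Glt28d2 (0.851), Rnf19a (0.845) and Tiam1 (0.832), and to Stat5b Plcg1 (0.837), Itpkb (0.832) and Foxo1 (0.818).

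The rest of the pathway was read from lists chosen by role. Counts on these lists stand against the share of all genes called, which for WT IL-2, H16R and 3x was 52.2%, 64.2% and 63.6% in isotype Tregs and 35.6%, 66.5% and 73.0% under MHC II block, and nothing particular to a list is read from them. Of 5 genes for the IL-2 receptor and its kinases, 4 were higher and 0 lower with WT IL-2 in isotype Tregs, 5 and 0 with H16R, and 4 and 0 with 3x. Under MHC II block these counts were 1 and 0, 4 and 0, and 4 and 0. Il2ra, which encodes CD25, rose in isotype Tregs by 0.24, 0.44 and 0.81 with WT IL-2, H16R and 3x (adjusted p = 0.0359, 0.000235 and 3.83e-08). Under block it rose by 0.47 with H16R and 1.17 with 3x, and WT IL-2 gave 0.08 (adjusted p = 0.534). In Tcons Il2ra, which is also 1 of the 4 Treg markers summed above, rose by 1.26, 1.67 and 1.32. Il2rb, the β chain, rose by 0.20, 0.26 and 0.50 in isotype Tregs, and by 0.57 and 0.74 with H16R and 3x under block. Jak3 was higher with WT IL-2 and H16R in isotype Tregs (0.38 and 0.43), and its WT IL-2 interaction was -0.50 (adjusted p = 0.000107).

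Of 12 further genes that STAT5 is described as raising, 5 were higher and 4 lower with WT IL-2 in isotype Tregs, 6 and 4 with H16R, and 8 and 3 with 3x; under MHC II block the counts were 4 and 2, 9 and 3, and 9 and 2 (shares of all genes called: 52.2%, 64.2%, 63.6%, 35.6%, 66.5% and 73.0%). The medians of this list over the 6 comparisons were 0.11, 0.22, 0.32, 0.03, 0.40 and 0.61, and those of all tested genes lay between -0.04 and 0.02. Of the 12, Foxp3 and Ctla4 are also among the Treg markers summed above. Gzmb, the cytotoxic protease granzyme B, had the largest rises, of 3.03, 4.04 and 4.43 in isotype Tregs and 3.22, 5.90 and 6.35 under block. Prdm1, which encodes the effector regulator BLIMP-1, rose by 1.14, 1.03 and 0.75, and by 0.63, 1.24 and 1.48. Osm, which encodes oncostatin M, rose with H16R and 3x (0.42 and 0.84 in isotype Tregs, 0.63 and 1.52 under block). Bcl2, a survival gene, went against the name of the list and fell in each of the 6, by 0.79, 0.88 and 0.39 and by 0.38, 1.01 and 0.92.

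Of 3 genes that STAT5 is described as lowering, Bcl6, a repressor that opposes BLIMP-1, fell in each of the 6 comparisons, by 0.38, 0.46 and 0.91 in isotype Tregs and by 0.32, 0.37 and 0.73 under MHC II block, and in Tcons by 0.62, 0.87 and 0.71. Against the same shares of all genes, the list as a whole had 0 higher and 2 lower with WT IL-2, 1 and 1 with H16R and 2 and 1 with 3x in isotype Tregs, and 1 and 2, 0 and 2, and 0 and 3 under block. Il6ra, a receptor chain for IL-6, was higher with 3x in isotype Tregs (0.26) and lower under block (-0.28), with an interaction of -0.54 (adjusted p = 8.56e-05). Il7r, the IL-7 receptor chain, had a 3x interaction of -0.84 (adjusted p = 0.000544).

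Of 5 other SOCS and PIM genes tested, against the same shares (Socs4, Socs5, Socs6, Socs7 and Pim3), 1 was higher and 2 lower with WT IL-2 in isotype Tregs, 1 and 3 with H16R and 2 and 3 with 3x, and 1 and 0, 0 and 4, and 0 and 3 under MHC II block. Socs5 fell by 0.19, 0.32 and 0.54 in isotype Tregs and by 0.44 and 0.49 with H16R and 3x under block. Pim3 rose by 0.37, 0.25 and 0.22 in isotype Tregs, and with 3x under block it was lower by 0.18 (interaction -0.39, adjusted p = 0.00149). Of 5 other STAT genes, against these shares, 1 was higher and 0 lower, 3 and 0, and 1 and 1 in isotype Tregs, and 0 and 0, 2 and 1, and 2 and 1 under block. Stat3 rose with H16R by 0.25 in both arms and with 3x only under block (0.35), with a 3x interaction of 0.31 (adjusted p = 0.00282). Of 11 other negative regulators of cytokine signaling, again against the 52.2%, 64.2% and 63.6% of all genes in isotype Tregs and 35.6%, 66.5% and 73.0% under block, 4 were higher and 1 lower, 5 and 1, and 5 and 2 in isotype Tregs, and 1 and 1, 4 and 3, and 3 and 2 under block. Pias3, which inhibits STAT binding to DNA, rose in each of the 6, by 0.30, 0.38 and 0.35 and by 0.17, 0.30 and 0.24. Ptpn1, a phosphatase of JAK kinases, rose in isotype Tregs by 0.28, 0.33 and 0.19, and its WT IL-2 interaction was -0.31 (adjusted p = 0.00348).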

How the data were processed

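Bulk RNA-seq of 32 Treg and 16 Tcon libraries was used. The authors aligned reads with Omicsoft Array Suite 10.0 and estimated gene levels with RSEM. They deposited expected counts and FPKM, and 72.8% of nonzero expected counts were whole (tolerance 1e-06). The deposited comparison tables of the authors (DESeq2 1.30.1) hold log2 fold changes, p-values and a Wald score, and were not used. Tables held 0 columns of other samples. Of 53345 gene names, 51519 were found in GENCODE vM21 (GRCm38), and the study's methods give the gene model as GENCODE v19.

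Expected counts were rounded, scaled by TMM and tested with edgeR 4.0.16 (quasi-likelihood, R 4.3.3), with Benjamini-Hochberg adjustment over all tested genes in each contrast and a threshold of 0.1. Tested genes were protein-coding with CPM over 0.5 in at least 4 libraries. All 32 Treg libraries shared 1 fit by group. Treg and Tcon libraries were fitted with the mouse as a block, because both came from the same animal, and 1 difference per treatment over both antibody arms. Tcons were fitted with treatment and antibody as terms. Intervals are 95% and ± is the SE of a fold change or the SD of levels. CPM for correlations used a prior count of 2. Scripts were checked on simulated data.

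Alternatives were DESeq2 1.42.0, library totals, no filter, limma 3.58.1 on log2(FPKM + 1) and log2(FPKM + 0.1), only the groups compared, the replicate number as a block, and each library left out. The 8 members and all lists were chosen with earlier results of these data known. Named were the members, up to 4 genes per list with the largest change past the threshold, and the 3 genes most like each member by Pearson r, of which 1 is not reported here. Samples of a group were treated as separate mice, including the 2 that share a replicate label. The 2 libraries of a group nearest to each other, of all groups, differed by a chi-square of 3.72 per gene, so none was counted as a copy. That value concerns copied libraries and cannot tell whether 3a and 3b came from different mice. Promoter sequences are from RefSeq.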

Additional observations from a re-analysis of the deposited data

Results flagged for a closer look

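Among 64 gene and group sets of 4 Treg libraries, 4 had 1 library far from the other 3 by Dixon's test, and chance gives this in about 1 in 20 sets. They were Socs1 in isotype PBS replicate 4 (26.5 CPM), Socs2 in MHC II block 3x replicate 2 (86.3 CPM), Socs3 in isotype H16R replicate 3 (404 CPM) and Pim2 in MHC II block PBS replicate 4 (22.5 CPM).

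The response to IL-2 differed between isotype and MHC II block Tregs by the interaction term in 12 cases (log2 difference, MHC II block minus isotype). For WT IL-2 these were Stat5a (-0.27), Stat5b (-0.23), Socs3 (-0.33), Pim1 (-0.21) and Pim2 (0.59). For H16R they were Stat5b (-0.21), Cish (0.24), Socs2 (0.48) and Pim2 (0.64), and for 3x they were Stat5b (-0.23), Socs3 (0.31) and Pim2 (0.83).

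The response differed between Tregs and Tcons of the same mice in 11 cases (log2 difference, Treg minus Tcon). With WT IL-2 these were Cish (-0.56) and Socs2 (-0.62). With H16R they were Stat5b (0.17), Cish (-0.56), Socs3 (0.61), Pim1 (0.73) and Pim2 (-0.65). With 3x they were Stat5a (-0.21), Socs2 (0.63), Pim1 (0.78) and Pim2 (-0.69). The calls of Socs2 with WT IL-2, Stat5b with H16R and Stat5a with 3x were lost without 5, 3 and 3 of the 16 mice in turn, at adjusted p up to 0.14, 0.13 and 0.133.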

How the results depend on the processing

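Of 144 calls among 240 gene and comparison pairs, 107 passed under each alternative and with each library left out. Without filters on CPM and biotype, the isotype calls between IL-2 molecules numbered 5 in place of 11. With expected counts in place of FPKM the Stat5b to Stat5a ratio was 2.67 in place of 1.96 in Tregs and 2.65 in place of 1.95 in Tcons, because the transcripts differ in length. Of 240 pairs, the fit without these filters gave the same verdict for 213 (23 calls lost), DESeq2 for 232, library totals for 224, and limma with either pseudocount for 225. Without both libraries rich in B cell and myeloid markers, chosen after seeing the data, the verdict was the same for 196 of 208. The cause was not tested for the others.

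Replicate numbers did not pair the Treg groups: deviations of same-numbered libraries had r from -0.481 to 0.657 (median 0.025, 112 pairs). The replicate block lost 4 of 184 verdicts, all near the threshold. Without the mouse as a block in the Treg and Tcon comparison, 7 changes of the gap were called in place of 11, and 52 of 56 verdicts were the same.

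With 1 library left out, members called ranged from 15 to 21 (IL-2 against PBS, isotype), 18 to 21 (MHC II block), 15 to 18 (MHC II block against isotype), 6 to 11 and 9 to 13 (between molecules, isotype and MHC II block), 10 to 13 (interactions), 32 to 32 (Treg against Tcon), 8 to 14 (change of that gap), 5 to 11 (Tcons) and 2 to 5 (MHC II block in Tcons), and the ratio from 1.95 to 1.97 in Tregs and 1.92 to 1.96 in Tcons. The share of all genes called in each fit is not given here, so nothing particular to the members is read from these ranges. That share can move as well. For WT IL-2 against PBS in Tcons it was 43.1% without isotype WT IL-2 Tcon replicate 2, against 27.2% with it. The 1 reversal was Socs3 with WT IL-2 in Tcons, at -0.24 without isotype WT IL-2 replicate 2 and up to 0.14 without the other libraries. With library totals in place of TMM, the share of calls that were higher moved from 48.8% to 38.4% (H16R against PBS, isotype), from 61.5% to 44.0% (WT IL-2 against PBS, MHC II block), from 47.6% to 30.0% (H16R against WT IL-2, isotype) and from 51.6% to 37.5% (Treg against Tcon, H16R), and the median of all genes moved by over 0.1 in the last of these (-0.11).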
